A study of Mus musculus with 36 samples.

Results

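Basal keratinocytes build their intermediate filaments from keratins 5 and 14, and activated keratinocytes add keratins 6a, 6b, 16 and 17. The mRNAs of 7 such keratins were followed here through a loss and a re-expression of plakophilin 4 (PKP4) in murine keratinocytes. The members are the basal keratins Krt5, Krt14 and Krt15 and the stress keratins Krt6a, Krt6b, Krt16 and Krt17, taken by gene symbol from the counts of 55358 genes. All 7 were among the 15114 genes that passed the filter on low counts.

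The 36 libraries fall into 12 groups of 3, formed by genotype, time and medium. WT cells are primary keratinocytes from newborn Pkp4+/+ mice and PKP4-KO cells are those of Pkp4-/- mice. Rescue cells are the same knockout keratinocytes transduced with a lentivirus for human PKP4 fused to GFP and selected with puromycin as a stable line. Whether WT and PKP4-KO cells carry an empty vector is not given in the sources used here. Culture lasted 24 h or 72 h, either with low calcium medium (LCM) or with high calcium medium (HCM), which is LCM supplemented with CaCl2 to induce junction formation and differentiation. The 3 libraries of a group are described as biological replicates, but whether they stem from separate animals or cultures of one isolate is not given in the sources used here, so p-values measure the spread between these libraries.

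Keratins are the intermediate filament proteins of epithelia. A filament forms from obligate pairs of a type I (acidic) and a type II (basic) chain and is anchored at desmosomes and hemidesmosomes, where it carries mechanical load. In the basal layer of the epidermis the pair is Krt5 with Krt14, with Krt15 as a further type I chain that is known as a marker of basal cells and of hair follicle stem cells. On differentiation in a calcium-rich environment keratinocytes turn to Krt1 and Krt10. Krt6a, Krt6b, Krt16 and Krt17 are low in healthy interfollicular epidermis, are found in hair follicles, nails and palmoplantar skin, and are induced in wounds, psoriasis and culture, which gave them the name stress or wound keratins.

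The total per library lay between 13602728 and 22467187 counts. Levels are given as CPM, the counts of a gene scaled to a common library total, with the TMM factors of edgeR, which correct for differences in library composition, and levels of different genes are compared only per kb of exon. The TMM factors were 0.48 to 0.55 in the 3 PKP4-KO libraries at 72 h HCM and 0.71 to 1.39 in the other 33, so that this group stood apart and its fold changes depend on the scaling more than the others. Pkp4, the deleted gene, lay between 33.4 and 76.3 CPM in WT libraries, while PKP4-KO libraries had 6.39 to 14.1 and Rescue libraries 6.52 to 11.9. GFP-PKP4 had 1902 to 15325 counts in Rescue libraries and 113 or fewer in the others. The 10 keratinocyte markers summed to between 4507 and 12349 CPM in all libraries. The 8 fibroblast markers reached at most 11.6 CPM in sum, the 5 melanocyte markers 2.03, the 5 immune markers 3.64, the 3 endothelial markers 5.15 and the 3 Merkel cell markers 8.75, with Tyr, Cd207 and Atoh1 at 0 in every library. The 5 markers of simple epithelium summed to between 8.86 and 53.3 CPM in WT, between 9.65 and 20.2 in PKP4-KO and between 109 and 408 in Rescue libraries.

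The genes lie in the type I and type II keratin clusters. In GRCm39, the build of the counts, the type II genes Krt6b (chr15:101584458-101588722), Krt6a (chr15:101598345-101602742) and Krt5 (chr15:101615505-101621346) follow each other with gaps of 9.6 and 12.8 kb. The type I genes are Krt15 (chr11:100022584-100026775), Krt14 (chr11:100093988-100098490), Krt16 (chr11:100136917-100139795) and Krt17 (chr11:100147040-100151974), with gaps of 67.2, 38.4 and 7.2 kb between neighbours. All 7 are on the minus strand, with 9 exons in each type II and 8 in each type I transcript. Krt16 and Krt17 are the closest neighbours.

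Krt6a and Krt6b are near-identical copies: 97.8% of 1659 aligned coding bases are the same, with a shared run of 280. Of all windows of 150 bases in the Krt6a exons, 30.4% also occur in another gene (Krt6b, Gm5478 or the antisense RNA Gm49428), and 18.8% of those of Krt6b occur in Krt6a. For Krt16 the share is 17.5%, with the pseudogene Gm11597, which had 630 to 12888 counts per library, and for Krt5, Krt14, Krt15 and Krt17 it is 0.0%. How reads that match several places were counted is not given in the sources used here, so the split between Krt6a and Krt6b, and the level of Krt16, are less certain than the other values. The stretch of 60 coding bases with the most differences between Krt6a and Krt6b, bases 817 to 876 of both, is one place where a read can tell them apart. Capitals mark the 10 bases that differ.
Krt6a: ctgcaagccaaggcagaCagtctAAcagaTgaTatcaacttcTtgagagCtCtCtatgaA
Krt6b: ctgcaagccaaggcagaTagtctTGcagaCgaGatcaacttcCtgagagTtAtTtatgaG

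The promoters of Krt6b and Krt16 are shown because these type II and type I stress keratins moved together below. Each is the 250 bases before the start of the canonical transcript in GRCm39, written 5′ to 3′ on the strand of the gene: Krt6b chr15:101588723-101588972 and Krt16 chr11:100139796-100140045. Capitals mark the AP-1 site (TGACTCA or its complement TGAGTCA) and the TATA box (TATANA), both searched on both strands in these windows. The letters of the TATA box were widened to TATANA after the promoters had been read.
Krt6b: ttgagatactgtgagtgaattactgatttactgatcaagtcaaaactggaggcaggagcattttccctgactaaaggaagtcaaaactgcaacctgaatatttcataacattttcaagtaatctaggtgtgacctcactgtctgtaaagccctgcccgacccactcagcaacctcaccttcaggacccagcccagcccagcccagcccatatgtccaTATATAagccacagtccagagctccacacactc
Krt16: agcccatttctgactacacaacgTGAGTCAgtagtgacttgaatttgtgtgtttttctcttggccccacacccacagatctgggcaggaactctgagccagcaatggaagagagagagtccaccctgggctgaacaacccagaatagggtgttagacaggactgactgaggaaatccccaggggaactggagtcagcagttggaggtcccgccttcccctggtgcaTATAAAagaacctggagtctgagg

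The promoters of Krt6b and Krt16 are 55.7% identical over 212 aligned bases. Krt6b holds TATATA at -33 to -28 and Krt16 holds TATAAA at -24 to -19, and TATANA occurs in 21% of 21770 mouse promoters of this length. Krt16 also has an AP-1 site, at -227 to -221, which 4.02% of those promoters have. Krt5, Krt14 and Krt17 hold neither motif in this window.

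Together the 7 keratins took between 6.03% and 10.7% of all counts of a library, with a median of 8.65%, and 4 to 6 of them were among its 10 most counted genes. Per kb in WT cells at 24 h LCM, Krt14 was highest with 13859 ± 1558 (SD, n = 3) CPM per kb. Krt6a followed with 6755 ± 722, then Krt5 with 5511 ± 658, Krt17 with 4079 ± 344, Krt16 with 2116 ± 316 and Krt6b with 906 ± 158. Krt15 was at 3.98 ± 0.524 CPM per kb, so that the basal type I keratins Krt14 and Krt15 stood at the 2 ends of the list in these cells. Over the 12 group means, the ratio of the highest to the lowest was 2.64 for Krt14, 3.2 for Krt5, 3.67 for Krt6a, 4.47 for Krt17, 11 for Krt16, 34.9 for Krt6b and 293 for Krt15.

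**Figure D1:**
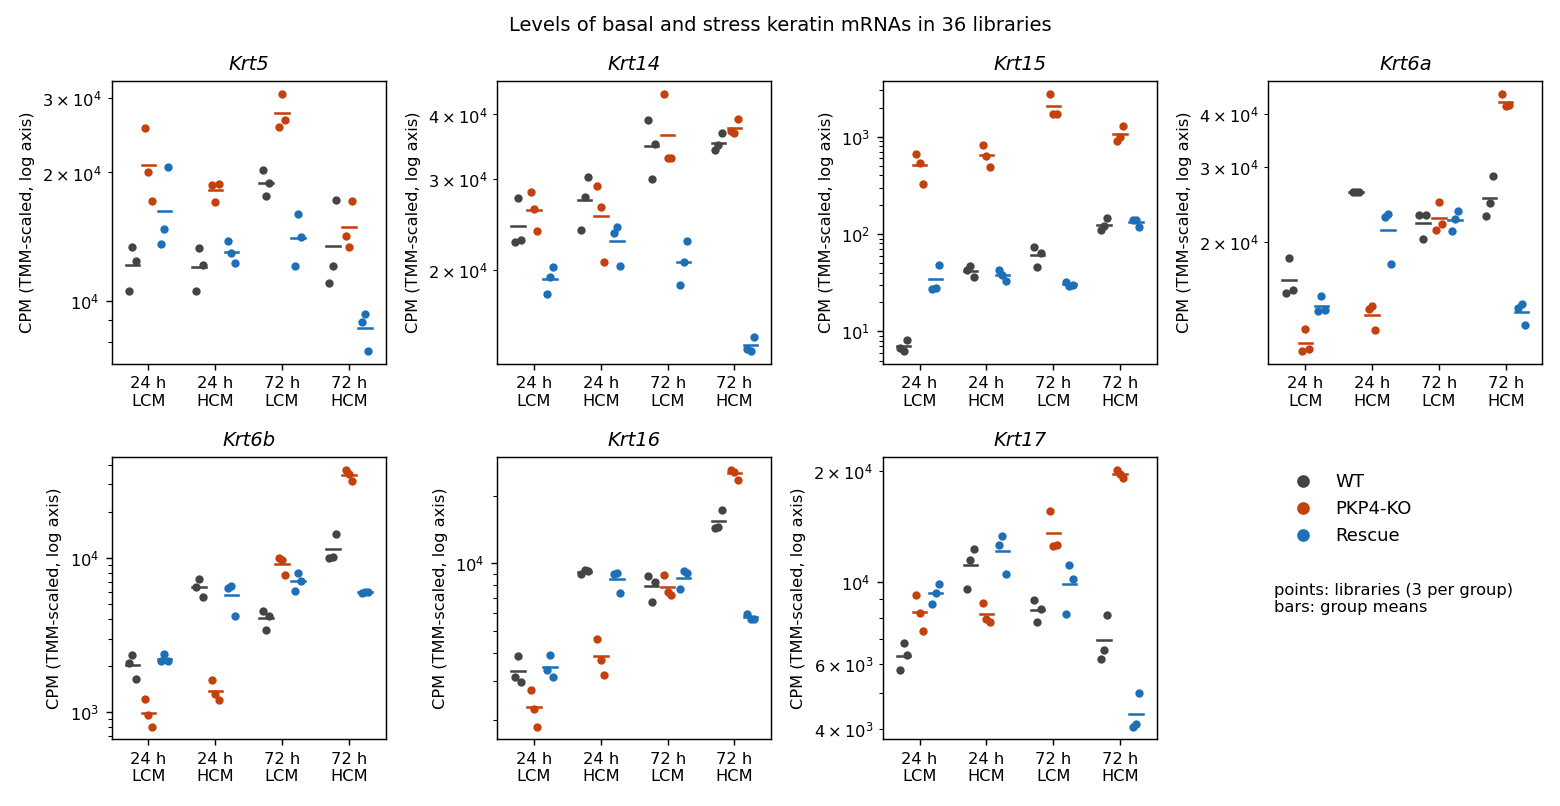
Levels of the 7 keratin mRNAs in CPM (TMM-scaled, log axis) in each library (points) with the mean of the 3 libraries of a group (bars), by time and medium on the x axis and by genotype in colour. Within each condition Krt15 is highest in the PKP4-KO libraries. On this scale Krt6a, Krt6b, Krt16 and Krt17 reach their highest levels in PKP4-KO cells at 72 h HCM, the group with TMM factors of 0.48 to 0.55.

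The comparison of PKP4-KO with WT cells asks which keratins differ between these genotypes. As the number of isolates per genotype is not given, genotype and isolate cannot be told apart. Krt15 was higher in PKP4-KO cells in all 4 conditions. At 24 h LCM the 3 WT libraries had 6.71, 6.3 and 8.07 CPM and the 3 PKP4-KO libraries 673, 532 and 327. At 24 h HCM WT libraries had 43, 46.5 and 36.2 CPM against 824, 638 and 489. The values at 72 h LCM were 73.2, 46.2 and 63.8 CPM in WT and 2761, 1698 and 1711 in PKP4-KO cells, and at 72 h HCM 109, 121 and 145 against 904, 995 and 1305. No PKP4-KO library overlapped with a WT library: the lowest of 12 (327 CPM) stood above the highest of 12 (145 CPM). By the quasi-likelihood test of edgeR, with p-values adjusted by the Benjamini-Hochberg method over all tested genes, Krt15 was 72.6-fold higher at 24 h LCM (log2 fold change 6.18 ± 0.31 (SE), adjusted p = 3.15e-15) and 15.5-fold at 24 h HCM (3.96 ± 0.28, adjusted p = 1.82e-12). At 72 h it was 33.7-fold higher in LCM (5.07 ± 0.29, adjusted p = 4.88e-14) and 8.54-fold in HCM (3.09 ± 0.27, adjusted p = 1.87e-10). Even so Krt15 stayed a minor keratin: its ratio to Krt14 per kb rose from 0.000291 in WT to 0.0192 in PKP4-KO cells at 24 h LCM and reached 0.0552 ± 0.00643 at 72 h LCM. In these bulk libraries more cells with Krt15 and more Krt15 mRNA per cell cannot be told apart.

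Krt14, the main type I chain of basal cells, was not called between PKP4-KO and WT cells in any condition. Its log2 fold change was 0.10 ± 0.15 at 24 h LCM, -0.10 ± 0.15 at 24 h HCM, and 0.08 ± 0.15 (LCM) and 0.10 ± 0.15 (HCM) at 72 h (SE). Libraries of the genotypes overlapped at 24 h and at 72 h LCM. At 72 h HCM they did not: WT libraries had 34118, 34941 and 36819 CPM against 37120, 36846 and 39258 in PKP4-KO cells. Without TMM factors the last value was -0.66 and past the threshold (adjusted p = 5.84e-04), in a comparison whose median over all genes then was -0.83. Krt5, its type II partner, rose in PKP4-KO cells in 3 of 4 conditions, by 0.79 ± 0.18 at 24 h LCM (adjusted p = 9.15e-04), 0.60 ± 0.18 at 24 h HCM (adjusted p = 0.00762) and 0.54 ± 0.18 at 72 h LCM (adjusted p = 0.0156) on the log2 scale. The call at 72 h LCM was lost without PKP4-KO replicate 2 (0.46) or WT replicate 2 (0.49). At 72 h HCM Krt5 lay at 13447 ± 3346 CPM in WT and 14896 ± 2018 in PKP4-KO cells (SD, n = 3) and was not called. The ratio of Krt14 to Krt5 per kb, which does not depend on the scaling, was 2.52 ± 0.195 in WT and 1.59 ± 0.175 in PKP4-KO cells at 24 h LCM and 3.39 ± 0.636 and 3.19 ± 0.305 at 72 h HCM.

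Krt6a, Krt6b and Krt16 were lower in PKP4-KO cells at 24 h, and all 4 stress keratins were higher at 72 h HCM, although the difference between the times was not itself tested. At 24 h HCM, Krt6b, a type II stress keratin, had 6517, 7257 and 5569 CPM in WT and 1616, 1312 and 1205 in PKP4-KO libraries. Krt16, the type I partner of Krt6, had 8988, 9305 and 9217 CPM against 4627, 3726 and 3196. Krt6a had 26233, 26214 and 26255 CPM against 13939, 14149 and 12492. For these 3 genes all PKP4-KO libraries were below all WT libraries. The fold changes were 4.68-fold lower for Krt6b (log2 -2.23 ± 0.20, adjusted p = 2.51e-10), 2.38-fold for Krt16 (-1.25 ± 0.16, adjusted p = 2.23e-07) and 1.94-fold for Krt6a (-0.96 ± 0.13, adjusted p = 4.13e-07). Krt17, the other type I stress keratin, was 1.36-fold lower (-0.44 ± 0.15, adjusted p = 0.0162), a call that was lost without PKP4-KO replicate 2 (-0.42) or 3 (-0.41) or WT replicate 3 (-0.36). With Krt5 and Krt15 higher, 6 of 7 members were called in this comparison, where 42.8% of all genes were.

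At 24 h LCM Krt6a, Krt6b and Krt16 were lower in PKP4-KO cells by smaller amounts. Krt6b fell by 1.03 ± 0.19 (adjusted p = 8.4e-05), Krt6a by 0.49 ± 0.13 (adjusted p = 0.00266) and Krt16 by 0.54 ± 0.16 (adjusted p = 0.00802) on the log2 scale. Krt17 was higher by 0.39 ± 0.15 (adjusted p = 0.0348). The Krt16 call was lost without PKP4-KO replicate 3 or WT replicate 2 (-0.41 for both), and that of Krt17 without PKP4-KO replicate 1 (0.30) or 2 (0.39), WT replicate 1 (0.33) or 3 (0.39), or TMM factors (0.15). Krt17 was also not called with upper-quartile factors (0.35), without a filter on low counts (0.40) or with at least 10 counts in every library (0.34). With only the compared groups in the fit, Krt17 (0.37), Krt16 (-0.55) and Krt6a (-0.51) were not called. Here too 6 of 7 members were called, against 40.2% of all genes.

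At 72 h LCM the type II stress keratin Krt6b and the type I stress keratin Krt17 were higher in PKP4-KO cells. Krt6b had 4524, 3422 and 4197 CPM in WT and 9969, 9736 and 7725 in PKP4-KO libraries, a 2.26-fold rise (log2 1.18 ± 0.19, adjusted p = 1.33e-05), and Krt17 rose 1.62-fold (0.69 ± 0.15, adjusted p = 3.61e-04). Krt6a lay at 22257 ± 1615 CPM in WT and 22790 ± 1855 in PKP4-KO cells and Krt16 at 7932 ± 1100 and 7842 ± 898 (SD, n = 3), and neither was called. With Krt5 and Krt15, 4 of 7 members were called, all higher, where 45.1% of all genes were called in either direction and 21.3% were higher. Without TMM factors Krt5 was at 0.15 there and not called.

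In HCM at 72 h, Krt6b had 9980, 10094 and 14266 CPM in WT and 37423, 34849 and 31733 in PKP4-KO libraries. Krt17 had 6187, 6544 and 8148 CPM against 20214, 19622 and 19195, and Krt6a 23066, 24730 and 28547 against 44564, 41705 and 41943. For all 4 stress keratins the PKP4-KO libraries were above the WT libraries on this scale. Krt6b was 3.03-fold higher (log2 1.60 ± 0.19, adjusted p = 1.04e-07), Krt17 2.83-fold (1.50 ± 0.15, adjusted p = 3.19e-09), Krt6a 1.68-fold (0.75 ± 0.13, adjusted p = 1.83e-05) and Krt16 1.63-fold (0.70 ± 0.16, adjusted p = 5.68e-04). Of 7 members 5 were called, against 51.8% of all genes. Without TMM factors Krt6b (0.86) and Krt17 (0.75) stayed higher, while Krt6a (-0.00) and Krt16 (-0.05) did not differ past the threshold, and 13.5% of all calls were higher in PKP4-KO cells instead of 42.2%. As a share of all counts, with no scaling, the stress keratins took 5.15% ± 0.332 in WT and 6.32% ± 0.437 in PKP4-KO cells, and the basal keratins 4.26% ± 0.403 and 2.78% ± 0.346 (SD, n = 3).

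**Figure D2:**
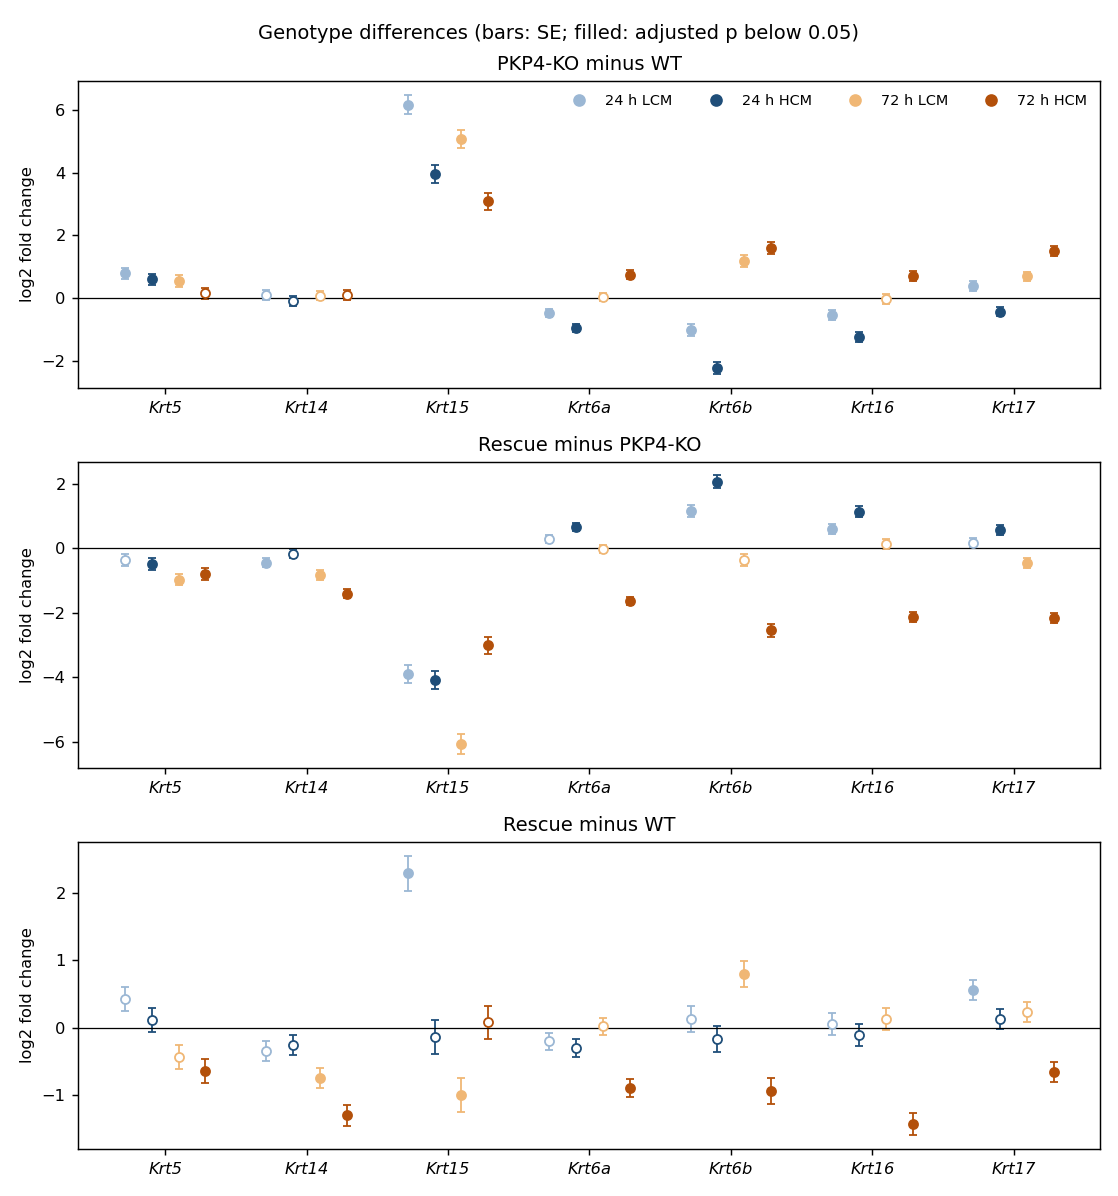
Log2 fold changes of the 7 keratins between genotypes in each of 4 culture conditions, with the SE of the fit as bars and filled points where the adjusted p was below 0.05. Krt15 is far above 0 in PKP4-KO minus WT and far below 0 in Rescue minus PKP4-KO in all conditions, and the stress keratins change side between 24 h and 72 h HCM in the upper 2 panels.

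Ratios within a library are free of the scaling between libraries and were read beside the fold changes. The summed level per kb of the 4 stress keratins over that of the 3 basal keratins was 1.39, 1.26 and 1.19 in WT and 0.593, 0.602 and 0.621 in PKP4-KO libraries at 24 h HCM. At 72 h HCM it was 1.11, 1.11 and 1.2 in WT and 2.31, 2.24 and 1.91 in PKP4-KO libraries. Neither pair of groups overlapped, in opposite directions at the 2 times. In LCM the ratio was 0.716 ± 0.0125 in WT and 0.491 ± 0.0286 in PKP4-KO cells at 24 h and 0.759 ± 0.0235 and 0.792 ± 0.0292 at 72 h, where the libraries overlapped (SD, n = 3). The ratio of Krt6b to Krt6a rose in WT from 0.134 ± 0.0175 at 24 h LCM to 0.483 ± 0.0513 at 72 h HCM, and in PKP4-KO cells from 0.0928 ± 0.0227 to 0.877 ± 0.0507. Krt16 per Krt17 was lower in PKP4-KO than in WT libraries in every condition without overlap, for example 1.28, 1.3 and 1.22 against 2.31, 2.21 and 2.11 at 72 h HCM. These ratios are given as values with no test.

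**Figure D3:**
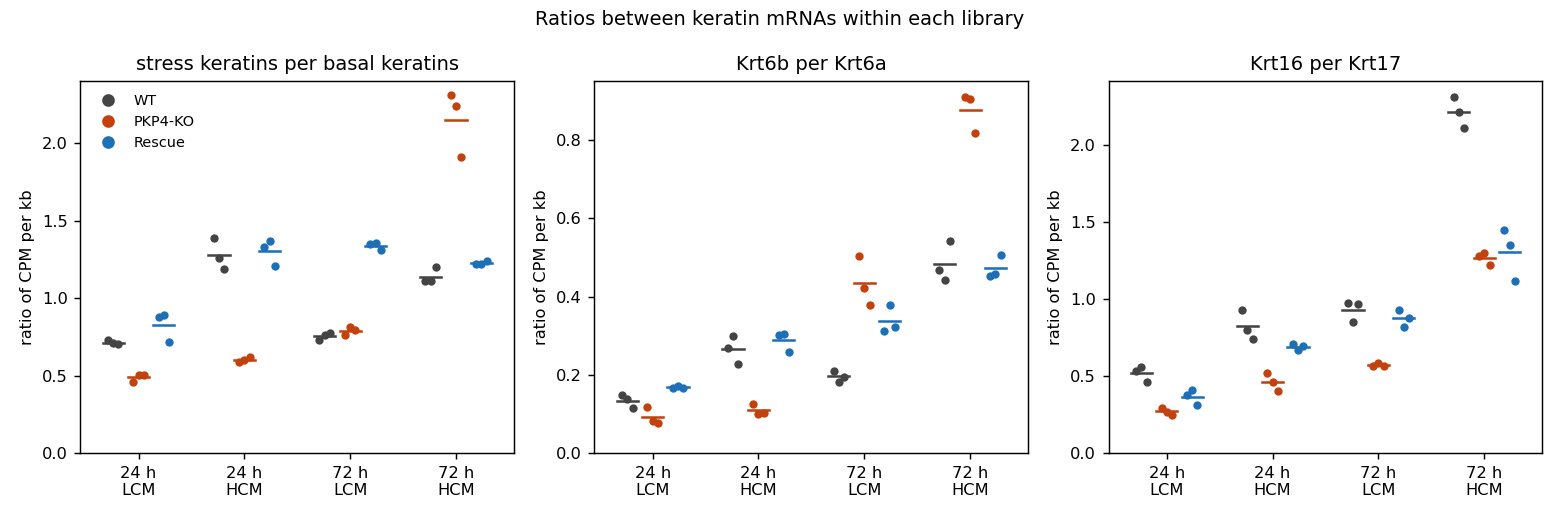
Ratios of levels per kb within each library (points; bars are group means): stress over basal keratins, Krt6b over Krt6a and Krt16 over Krt17, by time and medium on the x axis and genotype in colour. The stress over basal ratio of PKP4-KO cells is below that of WT at 24 h HCM (0.605 and 1.28) and above it at 72 h HCM (2.16 and 1.14), and that of Rescue is 1.3 and 1.23.

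The calcium switch is the usual way to start differentiation in culture, and HCM was compared with LCM within each genotype and time. In WT cells at 24 h, Krt15 rose 5.96-fold (log2 2.57 ± 0.27, adjusted p = 4.29e-08), Krt6b 3.18-fold (1.67 ± 0.19, adjusted p = 3.15e-07), Krt16 2.77-fold (1.47 ± 0.16, adjusted p = 1.21e-07), Krt17 1.76-fold (0.81 ± 0.15, adjusted p = 2.09e-04) and Krt6a 1.61-fold (0.68 ± 0.13, adjusted p = 2.64e-04). Krt5 and Krt14 were not called, so that 5 of 7 members were, against 14.2% of all genes. In PKP4-KO cells at 24 h only Krt16 was called of the 7, 1.68-fold higher (0.75 ± 0.16, adjusted p = 0.00606), against 2.83% of all genes. Without PKP4-KO HCM replicate 1 (0.60) or LCM replicate 3 (0.63) this call was lost. In Rescue cells at 24 h Krt6b rose 2.59-fold (1.37 ± 0.19, adjusted p = 8.03e-06), Krt16 2.46-fold (1.30 ± 0.16, adjusted p = 1.26e-06) and Krt6a 1.5-fold (0.59 ± 0.13, adjusted p = 0.00174), 3 of 7 against 12% of all genes.

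After 72 h in PKP4-KO cells the stress keratins were higher and the basal keratins Krt5 and Krt15 lower in HCM, while Krt14 was not called. In WT cells Krt6b was 2.83-fold (log2 1.50 ± 0.19, adjusted p = 1.09e-06), Krt15 2.05-fold (1.04 ± 0.25, adjusted p = 0.00301) and Krt16 1.95-fold higher in HCM (0.96 ± 0.16, adjusted p = 4.68e-05). Krt5 was 1.41-fold lower (-0.49 ± 0.18, adjusted p = 0.0495), which left 4 of 7 members called against 21.4% of all genes. That Krt5 call ended without WT HCM replicate 1 (-0.37) or 2 (-0.42), any of the 3 WT LCM libraries (-0.45 to -0.54), or with the replicate number as a block (-0.50, adjusted p = 0.0531). In PKP4-KO cells the stress keratins rose, Krt6b 3.79-fold (1.92 ± 0.20, adjusted p = 2.27e-08), Krt16 3.21-fold (1.68 ± 0.16, adjusted p = 1.03e-08), Krt6a 1.88-fold (0.91 ± 0.13, adjusted p = 3.4e-06) and Krt17 1.45-fold (0.53 ± 0.15, adjusted p = 0.00626). Krt5 was 1.85-fold lower (-0.89 ± 0.18, adjusted p = 3.95e-04) and Krt15 1.93-fold lower (-0.95 ± 0.25, adjusted p = 0.00429), the latter not called without PKP4-KO LCM replicate 1 (-0.67). Krt14 lay at 37741 CPM in HCM and 36553 in LCM (mean, n = 3). This made 6 of 7 called, against 32.6% of all genes, and without TMM factors Krt6a was at 0.22 and Krt17 at -0.16, neither called. In Rescue cells 5 keratins were lower in HCM at 72 h: Krt17 by 1.16 ± 0.15 (adjusted p = 1.03e-06), Krt6a by 0.72 ± 0.13 (adjusted p = 1.02e-04), Krt5 by 0.71 ± 0.18 (adjusted p = 0.00449), Krt16 by 0.59 ± 0.16 (adjusted p = 0.00693) and Krt14 by 0.54 ± 0.15 (adjusted p = 0.00849) on the log2 scale. Krt15 was 4.35-fold higher (2.12 ± 0.26, adjusted p = 4.73e-07), and 24.9% of all genes were called. The Krt14 call was lost without TMM factors (-0.40, adjusted p = 0.0757), and those of Krt14 (-0.56) and Krt16 (-0.62) with only the compared groups in the fit.

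The differences between these responses were tested as interaction terms. Between PKP4-KO and WT cells at 24 h, the calcium response of PKP4-KO cells differed by -2.23 ± 0.36 for Krt15 (adjusted p = 2.47e-04), -1.20 ± 0.27 for Krt6b (adjusted p = 0.00783) and -0.83 ± 0.21 for Krt17 (adjusted p = 0.0178) on the log2 scale, 3 of 7 members against 4.02% of all genes. The Krt17 call was lost without PKP4-KO LCM replicate 1 (-0.74), WT HCM replicate 3 (-0.75) or WT LCM replicate 1 (-0.77), and without TMM factors (-0.51, adjusted p = 0.123). At 72 h it was larger in PKP4-KO cells for Krt6a (0.71 ± 0.18, adjusted p = 0.0133) and Krt17 (0.81 ± 0.21, adjusted p = 0.0163), the latter not without WT HCM replicate 1 (0.73), and smaller for Krt15 (-1.98 ± 0.35, adjusted p = 5.13e-04). This again made 3 of 7, against 5.74% of all genes. Neither Krt6a (0.35) nor Krt17 (0.45) was called at 72 h without TMM factors.

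Between Rescue and PKP4-KO cells no member passed the test at 24 h by edgeR (0 of 7, against 1.41% of all genes), although 3 had an unadjusted p under the threshold and DESeq2 called 1, Krt6b. At 72 h the response of Rescue cells differed from that of PKP4-KO cells by -2.27 ± 0.23 for Krt16 (adjusted p = 2.52e-08), -2.16 ± 0.27 for Krt6b (adjusted p = 9.65e-07), -1.70 ± 0.21 for Krt17 (adjusted p = 7.73e-07), -1.62 ± 0.18 for Krt6a (adjusted p = 1.39e-07), -0.58 ± 0.21 for Krt14 (adjusted p = 0.0354) and 3.07 ± 0.36 for Krt15 (adjusted p = 3.23e-07). Of all genes 31.5% were called here. The Krt14 call was lost without 7 of the 12 libraries one at a time, Rescue HCM replicate 1 or 2 (-0.57 for both), Rescue LCM replicate 2 (-0.58) or 3 (-0.51), PKP4-KO HCM replicate 3 (-0.55) and PKP4-KO LCM replicate 2 or 3 (-0.51 for both).

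Within WT cells the calcium response was smaller at 72 h than at 24 h for the basal Krt15 (-1.54 ± 0.36, adjusted p = 0.00883) and the stress keratin Krt17 (-1.09 ± 0.21, adjusted p = 0.00129), 2 of 7 against 4.35% of all genes. In PKP4-KO cells 4 of 7 differed, against 11% of all genes, with larger values at 72 h for Krt6a, Krt6b and Krt16 and a smaller one for Krt15. In Rescue cells 6 of 7 differed, against 12.5% of all genes, with a larger value at 72 h for Krt15 and smaller ones for Krt14 and the 4 stress keratins.

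**Figure D4:**
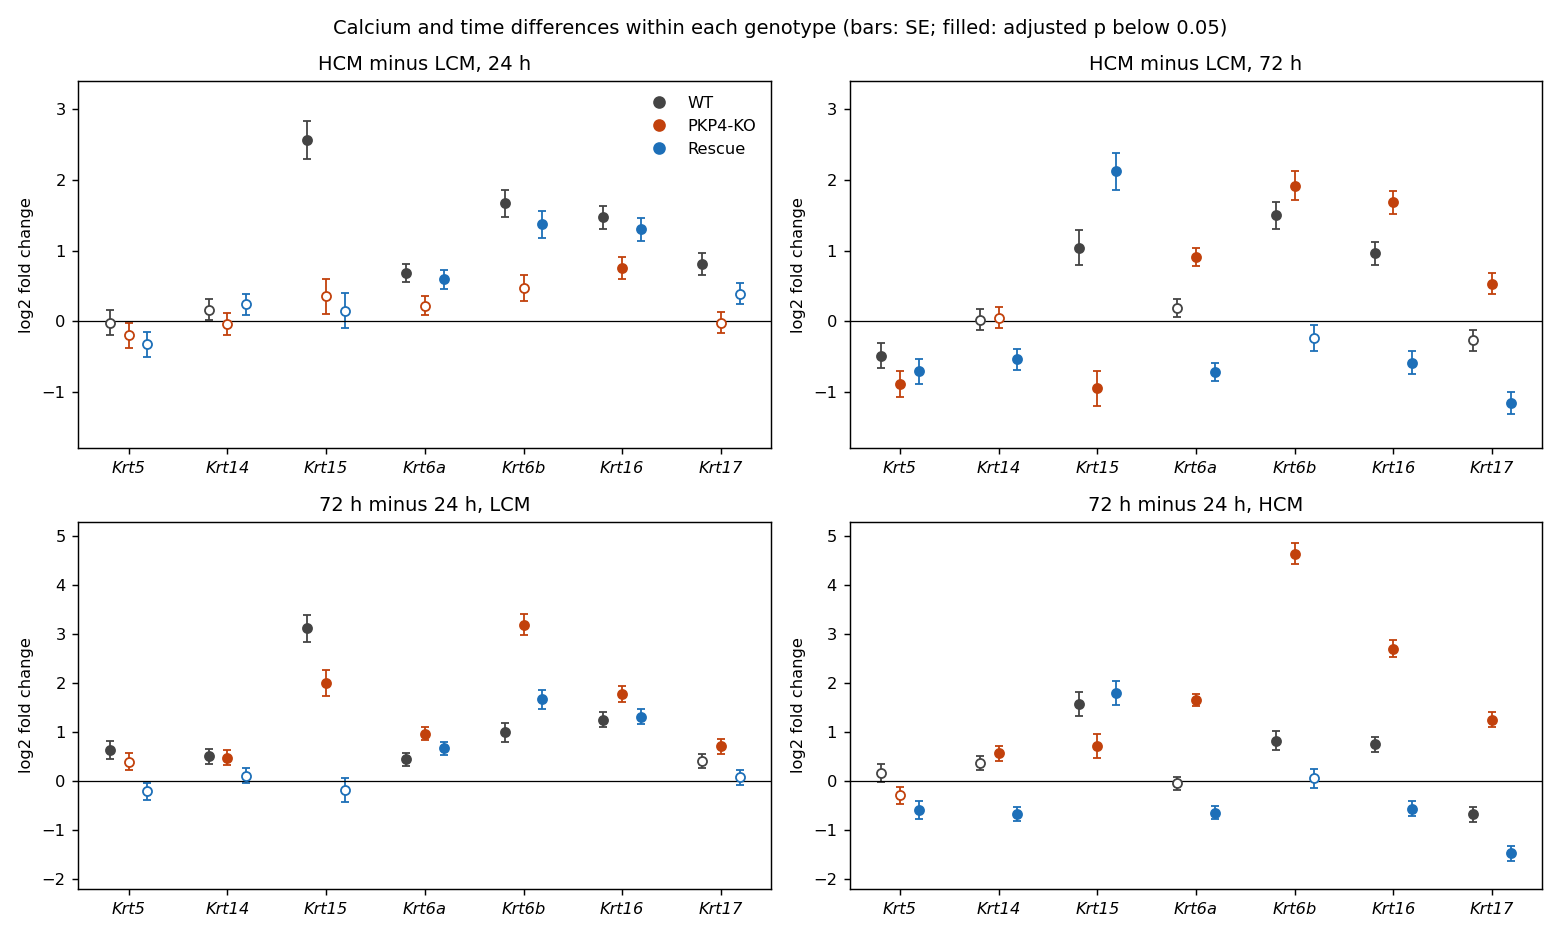
Log2 fold changes of the 7 keratins between HCM and LCM (upper panels) and between 72 h and 24 h (lower panels) within WT, PKP4-KO and Rescue cells, with the SE of the fit as bars and filled points where the adjusted p was below 0.05. The PKP4-KO points of Krt6b reach 4.65 between 24 h and 72 h in HCM, and in Rescue cells at 72 h the filled points of 5 genes are below 0 for HCM minus LCM.

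Time in culture was read as 72 h against 24 h within each genotype and medium. Library titles mark all 72 h groups as HD and all 24 h groups as LD. Any further difference behind these tags cannot be told apart from time. In PKP4-KO cells, between 24 h and 72 h HCM, Krt6b rose 25.2-fold (log2 4.65 ± 0.22, adjusted p = 9.43e-16), Krt16 6.54-fold (2.71 ± 0.17, adjusted p = 2.09e-13), Krt6a 3.16-fold (1.66 ± 0.13, adjusted p = 2.06e-11) and Krt17 2.4-fold (1.26 ± 0.15, adjusted p = 5.95e-08). Krt14 rose by 0.57 ± 0.15 (adjusted p = 0.00197) and Krt15 by 0.72 ± 0.25 (adjusted p = 0.0157), the latter not without replicate 3 at either time (0.55 for both). So 6 of 7 members were called, where 55.8% of all genes were. Without TMM factors, with a median over all genes of -1.16, Krt6b (3.58), Krt16 (1.63) and Krt6a (0.59) stayed higher and called, Krt17 was at 0.19 and not called, and Krt15 was at -0.36 and not called. Krt14 was then lower and past the threshold (-0.51, adjusted p = 0.0051), so that its called rise became a called fall. In LCM, PKP4-KO cells gained Krt6b 9.21-fold (3.20 ± 0.21, adjusted p = 1.77e-12), Krt15 4.03-fold (2.01 ± 0.26, adjusted p = 6.52e-07), Krt16 3.43-fold (1.78 ± 0.16, adjusted p = 1.66e-09), Krt6a 1.96-fold (0.97 ± 0.13, adjusted p = 1.07e-06), Krt17 1.64-fold (0.71 ± 0.15, adjusted p = 5.24e-04) and Krt14 1.4-fold (0.48 ± 0.15, adjusted p = 0.0157), 6 of 7 against 26.2% of all genes. The Krt14 call was lost without PKP4-KO replicate 1 at 72 h (0.33), replicate 3 at 24 h (0.42) or TMM factors (0.12).

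In WT cells the basal Krt15 and the stress keratins Krt6b and Krt16 rose with time in both media. In LCM Krt15 rose 8.68-fold (log2 3.12 ± 0.27, adjusted p = 2.01e-08), Krt16 2.39-fold (1.26 ± 0.16, adjusted p = 4.65e-06) and Krt6b 2-fold (SE 0.19 on the log2 scale, adjusted p = 7.94e-04). Krt5 (0.64 ± 0.18, adjusted p = 0.0201), Krt14 (0.51 ± 0.15, adjusted p = 0.0255) and Krt6a (0.45 ± 0.13, adjusted p = 0.0215) were called too, 6 of 7 against 9.96% of all genes, but these 3 calls were lost without replicate 1 or 3 at either time (0.55 to 0.66 for Krt5, 0.42 to 0.50 for Krt14 and 0.40 to 0.42 for Krt6a). Without TMM factors Krt14 (0.29) and Krt6a (0.23) were not called either. In HCM Krt15 (1.58 ± 0.25, adjusted p = 5.14e-05), Krt6b (0.83 ± 0.19, adjusted p = 0.00272) and Krt16 (0.75 ± 0.16, adjusted p = 0.00122) rose while Krt17 fell by 0.68 ± 0.15 (adjusted p = 0.00162), 4 of 7 against 17.9%. With only the compared groups in the fit, the HCM calls of Krt6b (0.85), Krt16 (0.77) and Krt17 (-0.66) were lost. In Rescue cells, LCM brought a rise of Krt6b (1.67 ± 0.19, adjusted p = 2.93e-07), Krt16 (1.32 ± 0.16, adjusted p = 5.9e-07) and Krt6a (0.67 ± 0.13, adjusted p = 4.1e-04), 3 of 7 against 9.81%. In HCM, by contrast, Krt17 fell by 1.47 ± 0.15 (adjusted p = 2.22e-08), Krt14 by 0.67 ± 0.15 (adjusted p = 0.00128), Krt6a by 0.64 ± 0.13 (adjusted p = 3.85e-04), Krt5 by 0.59 ± 0.18 (adjusted p = 0.0156) and Krt16 by 0.56 ± 0.16 (adjusted p = 0.00928), while Krt15 rose by 1.80 ± 0.25 (adjusted p = 4.83e-06), 6 of 7 against 24.3%. The Krt5 call was lost without Rescue replicate 3 at 72 h (-0.51) or replicate 1 at 24 h (-0.55).

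Rescue cells show which of the differences move back in knockout keratinocytes transduced with GFP-PKP4 and selected as a line. As it is not given whether the other genotypes carry a vector, PKP4 itself cannot be told apart from transduction and selection. The comparisons of Rescue with PKP4-KO and of PKP4-KO with WT share the PKP4-KO libraries, so that opposite signs are not independent, and the values stand here side by side with the test of Rescue against WT. Krt15 was lower in Rescue than in PKP4-KO cells in all conditions, with a log2 fold change of -3.89 ± 0.28 at 24 h LCM (adjusted p = 5.68e-12) and -4.09 ± 0.28 at 24 h HCM (adjusted p = 1.24e-12). It was -6.08 ± 0.31 at 72 h LCM (adjusted p = 4.69e-15) and -3.01 ± 0.27 at 72 h HCM (adjusted p = 2.25e-10). Rescue libraries had 27.3, 27.8 and 48.3 CPM of Krt15 at 24 h LCM and 43.2, 38.1 and 33.1 at 24 h HCM. After 72 h they had 32.2, 29.4 and 29.8 in LCM and 139, 140 and 118 in HCM. Each of these was below the lowest PKP4-KO library. Against WT, Krt15 was 4.9-fold higher in Rescue cells at 24 h LCM (2.29 ± 0.26, adjusted p = 1.5e-07) and 2-fold lower at 72 h LCM (SE 0.25 on the log2 scale, adjusted p = 0.0024), and it was not called in HCM, where the groups overlapped at both times.

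At 24 h HCM the stress keratins were higher in Rescue than in PKP4-KO cells. Krt6b had 6416, 6587 and 4230 CPM and Krt16 8999, 9097 and 7379 in Rescue libraries, and Krt6b was 4.17-fold (log2 2.06 ± 0.20, adjusted p = 1.1e-09), Krt16 2.21-fold (1.14 ± 0.16, adjusted p = 1.1e-06), Krt6a 1.58-fold (0.66 ± 0.13, adjusted p = 1.06e-04) and Krt17 1.49-fold higher than in PKP4-KO cells (0.57 ± 0.15, adjusted p = 0.00238). Krt5 was lower (-0.49 ± 0.18, adjusted p = 0.0315), which left 6 of 7 members called against 40.8% of all genes. Without Rescue replicate 2 (-0.48) or 3 (-0.45) or PKP4-KO replicate 1 or 3 (-0.46 for both), Krt5 was not called. Against WT 0 of 7 members were called by edgeR at 24 h HCM, where 23.2% of all genes were. Of the 7, 1 had an unadjusted p under the threshold, Krt6a, and DESeq2 called it. At 24 h LCM Krt6b (1.16 ± 0.19, adjusted p = 2.01e-05) and Krt16 (0.60 ± 0.16, adjusted p = 0.00402) were higher and Krt14 was lower (-0.44 ± 0.15, adjusted p = 0.0216) in Rescue than in PKP4-KO cells, with Krt15 4 of 7 against 33.7%. The Krt14 call did not hold without replicate 1 or 2 of either genotype (-0.38 to -0.45) or without TMM factors (-0.34). Against WT, Krt17 was higher at 24 h LCM (0.56 ± 0.15, adjusted p = 0.00531), with Krt15 2 of 7 against 24.8%.

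At 72 h HCM all 7 keratins were lower in Rescue than in PKP4-KO cells, where 66.7% of all genes were called and 29.5% were lower. Krt6b had 5883, 6040 and 5985 CPM, Krt16 5959, 5634 and 5667 and Krt17 4062, 4140 and 5018 in Rescue libraries. The fall was 5.81-fold for Krt6b (log2 -2.54 ± 0.20, adjusted p = 2.58e-11), 4.47-fold for Krt17 (-2.16 ± 0.15, adjusted p = 3.17e-12), 4.37-fold for Krt16 (-2.13 ± 0.16, adjusted p = 1.75e-11), 3.12-fold for Krt6a (-1.64 ± 0.13, adjusted p = 2.46e-11), 2.64-fold for Krt14 (-1.40 ± 0.15, adjusted p = 9.39e-09) and 1.73-fold for Krt5 (-0.79 ± 0.18, adjusted p = 4.23e-04). Without TMM factors, where the median over all genes was 1.37 and 84.7% instead of 55.8% of calls were higher, the 4 stress keratins and Krt15 stayed lower (-0.46 to -1.84), Krt14 was at -0.23 and not called, and Krt5 was higher at 0.38 (adjusted p = 0.00449). Rescue cells were also below WT for 6 of 7, against 36.2% of all genes: Krt16 by 1.43 ± 0.16 (adjusted p = 1.07e-07), Krt14 by 1.30 ± 0.15 (adjusted p = 1.44e-07), Krt6b by 0.94 ± 0.19 (adjusted p = 3.56e-04), Krt6a by 0.89 ± 0.13 (adjusted p = 3.72e-06), Krt17 by 0.66 ± 0.15 (adjusted p = 9.56e-04) and Krt5 by 0.64 ± 0.18 (adjusted p = 0.0066). The values of Krt5 (-0.19) and Krt17 (-0.23) were not called without TMM factors, nor was Krt5 without WT replicate 3 (-0.42). As a share of all counts the 7 keratins took 6.17%, 6.34% and 6.03% in these Rescue libraries and 9.49%, 10.1% and 8.64% in WT, without overlap. The ratio of stress over basal keratins was 1.22, 1.22 and 1.24 in Rescue cells, above the 1.11, 1.11 and 1.2 of WT, and that of Krt6b to Krt6a was 0.472 ± 0.0301 against 0.483 ± 0.0513.

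At 72 h LCM Rescue cells had less Krt5 (-0.97 ± 0.18, adjusted p = 7.95e-05), Krt14 (-0.82 ± 0.15, adjusted p = 5.91e-05) and Krt17 (-0.46 ± 0.15, adjusted p = 0.0126) than PKP4-KO cells, with Krt15 4 of 7 against 41.6% of all genes. The Krt17 call was lost without Rescue replicate 1, without PKP4-KO replicate 1 (-0.35 for both) or without TMM factors (-0.13). Against WT, Krt14 was lower (-0.74 ± 0.15, adjusted p = 2.52e-04) and Krt6b higher (0.80 ± 0.19, adjusted p = 0.00155), with Krt15 3 of 7 against 32.4%. Of simple epithelial keratins, which are no members, Krt7 was at 346 CPM in Rescue, 6.91 in WT and 7.52 in PKP4-KO cells at 72 h HCM (mean, n = 3). Krt7 makes up most of the summed simple epithelium markers of Rescue cells. Krt8 and Krt18 also had higher means in Rescue than in WT cells in all 4 conditions, at low levels. At 24 h HCM Krt8 was at 8.28 against 2.07 CPM and Krt18 at 0.378 against 0.12. Krt23, a simple epithelial keratin outside these markers, was higher too. It was at 83.2 against 9.86 CPM at 24 h HCM and 310 against 61.9 at 72 h HCM. Epcam and Krt19 did not follow in every condition. At 24 h HCM Epcam was at 23.8 CPM in Rescue and 37.4 in WT cells, and Krt19 at 1.07 and 1.72. At 72 h HCM both means were higher in Rescue cells, Epcam at 31.2 against 21.7 CPM and Krt19 at 8.07 against 7.03. Krt7 moves with the Rescue line, and the part of these genes in the lower basal and stress keratins of Rescue cells was not tested.

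Across the 12 group means the stress keratins Krt6a, Krt6b and Krt16 had similar patterns, with Pearson correlations of log2 CPM of 0.90 (Krt6a and Krt6b), 0.94 (Krt6a and Krt16) and 0.96 (Krt6b and Krt16). Krt17, adjacent to Krt16, correlated with it at 0.52, Krt5 with Krt14 at 0.58, and Krt15 with the others between 0.14 and 0.58. These values describe groups that share libraries and scaling, and carry no test. Among 7416 protein-coding genes outside the list, the patterns most like Krt6b were Pdlim2, a PDZ and LIM domain protein of the actin cytoskeleton (r = 0.976), and Tgm5, an epidermal transglutaminase (0.973), and those most like Krt16 were Il18, a cytokine made by keratinocytes (0.968), and Pdlim2 (0.966). Krt6a was most like Ctnnbip1, an inhibitor of β-catenin and TCF binding (0.975), and Stx8 (0.960), and Krt17 like P3h4 (0.922) and Rab5c (0.906). For the basal keratins they were Thra, a thyroid hormone receptor, for Krt5 (0.950), Commd1 (0.964) and Aptx (0.961) for Krt14, and Rab29 (0.963) and Osbpl9 (0.956) for Krt15.

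Further genes of keratin filaments and their setting were read from lists. Of 13 tested genes for suprabasal keratins and differentiation, 10 were lower and 2 higher in PKP4-KO than in WT cells at 24 h HCM, with a median log2 fold change of -2.54 (all genes -0.00, 42.8% called), and 2 were lower and 6 higher at 72 h HCM, with a median of 0.60 (all genes -0.07, 51.8% called). The 2 that were higher at both times were the suprabasal pair Krt1 and Krt10. Krt1 was higher by 4.02 ± 0.53 at 24 h (adjusted p = 3.23e-07) and 6.56 ± 0.59 at 72 h HCM (adjusted p = 3.6e-10), and Krt10 by 1.09 ± 0.38 (adjusted p = 0.0211) and 3.06 ± 0.41 (adjusted p = 4.64e-07). The mean level of Krt1 at 72 h HCM was 3750 CPM with PKP4 lost, 39.7 in WT and 17.8 in Rescue cells. Krt10 was then at 4435, 533 and 423 CPM. At 24 h HCM Krt1 was at 110 CPM in PKP4-KO, 6.81 in WT and 17.1 in Rescue cells. Krt10 was at 109, 51 and 103 there, so that its Rescue mean stayed near that of PKP4-KO cells. Ivl, an envelope protein, was lower in PKP4-KO cells at 72 h HCM (-2.83 ± 0.29, adjusted p = 4.02e-09).

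The counts of the further lists stand beside 42.8% of all genes called at 24 h HCM and 51.8% at 72 h HCM. Among 12 genes for keratin linkers and binding partners, 9 were lower and 1 higher in PKP4-KO cells at 24 h HCM (median -0.82) and 4 lower and 5 higher at 72 h HCM (median -0.05). Pkp1, a desmosomal plakophilin, was lower at 24 h (-0.81 ± 0.12, adjusted p = 1.31e-06) and higher at 72 h HCM (0.91 ± 0.12, adjusted p = 2.56e-07). Ppl, the periplakin that ties keratins to the envelope, was lower at both times (-2.17 ± 0.28, adjusted p = 1.93e-07, and -1.41 ± 0.27, adjusted p = 8.76e-05). Of 15 genes for keratinocyte activation in wounds, 10 were lower and 1 higher at 24 h HCM (median -1.91) and 7 lower and 6 higher at 72 h HCM (median 0.62). The alarmin Il33 turned from -2.69 ± 0.24 (adjusted p = 1.75e-10) to 2.65 ± 0.24 (adjusted p = 3.36e-10), and the alarmin S100a9 was at 246 CPM in WT and 2726 in PKP4-KO cells at 72 h HCM, whereas Il36g was lower in PKP4-KO cells (-1.15 ± 0.15, adjusted p = 2.12e-07). Of 13 transcription factors known to bind at keratin genes, 3 were lower and 5 higher at 24 h HCM (median 0.23) and 2 lower and 6 higher at 72 h HCM (median 0.28). Tfap2c, an AP-2 factor, was higher by 3.54 ± 0.30 (adjusted p = 1.19e-10) and 5.54 ± 0.32 (adjusted p = 4.46e-14). Its WT means were low, at 0.577 CPM at 24 h and 0.69 at 72 h HCM, against 6.82 and 32.3 in PKP4-KO cells. Rescue cells had 6.26 and 6.68 CPM. Klf4, a factor of differentiation, turned from -1.29 ± 0.21 (adjusted p = 8.66e-06) to 0.93 ± 0.21 (adjusted p = 4.66e-04). Of 6 simple-epithelium keratins, 4 were lower and 1 higher in PKP4-KO cells at both times in HCM, with medians of -4.16 and -3.44. These medians rest on low counts: at 24 h HCM Krt8 was at 2.07 CPM in WT and 0.0246 in PKP4-KO cells, and Krt20 at 3.04 and 0. Krt23 had higher levels, also with lower means in PKP4-KO cells. It was at 9.86 CPM in WT and 0.899 in PKP4-KO cells at 24 h HCM, and at 61.9 and 5.36 at 72 h HCM. Fold changes at 72 h HCM in these lists carry the scaling of the PKP4-KO group given above.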

How the data were processed

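Poly(A) RNA of 36 libraries was read paired-end in strand-specific libraries. The authors used HISAT2 2.1.0 for alignment to mm39, to which they had added GFP-PKP4, SAMtools 1.10 to drop secondary alignments and featureCounts 2.0.0 for counting on genes. The deposited values are whole-number counts per gene without normalization, with 13602728 to 22467187 per library. How counting treated strand and reads with several matches is not given in the sources used here.

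From these counts, R 4.3.3 and edgeR 4.0.16 were used with 1 mean per group (24 residual degrees of freedom), a low-count filter (filterByExpr, 12 groups), TMM scaling and the glmQLFit and glmQLFTest functions for quasi-likelihood testing. Adjusted p-values follow Benjamini-Hochberg over 15114 tested genes, a call means an adjusted p below 0.05, and 31 comparisons gave 217 tests of the 7 keratins. SE is the log2 fold change divided by the square root of F. Ratios and percent of all counts use no scaling. DESeq2 1.42.0 with its own size factors, no TMM factors, upper-quartile factors, factors without keratin genes, other filters, a replicate block, fits of only the compared groups and the leaving out of each library were alternatives.

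The keratins and the lists of other genes and markers were chosen with earlier results of these data known. In each comparison the keratins with a call are named, and of the others only some. Genes of like pattern are the 2 protein-coding genes with the highest Pearson correlation over 12 group means, among those with at least 10 CPM in a group and a range of at least 1 on the log2 scale, with a pseudocount of 0.5 CPM. Of these, 1 gene is not reported here, nor are 2 of the promoters. Other genes were named from the lists after their values were seen. Positions and promoters came from the reference genome GRCm39 and its annotation, which held 98.9% of the gene identifiers. No 2 libraries of a group were copies, with a chi-square per gene of 7.03 to 266 over 36 pairs. Data were simulated for PKP4-KO against WT at 24 h HCM, with 14620 genes tested and 200 changed. Of these, 56 of 100 genes with a log2 change of 1 and 90 of 100 with a change of 2 were called. Of 151 calls 5 were false. In the real comparison 42.8% of all genes were called, a far larger share than was changed here, so these rates need not hold for it. The tests in the report use no block on the replicate number.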

Additional observations from a re-analysis of the deposited data

Results flagged for a closer look

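The calcium response, HCM against LCM, differed between genotypes or times for 24 tests of the keratins, each by an interaction term in edgeR's quasi-likelihood test. Between PKP4-KO and WT at 24 h the log2 differences were -2.23 for Krt15, -1.20 for Krt6b and -0.83 for Krt17. At 72 h they were -1.98 for Krt15, 0.71 for Krt6a and 0.81 for Krt17. Between Rescue and PKP4-KO at 72 h they were -0.58 for Krt14, 3.07 for Krt15, -1.62 for Krt6a, -2.16 for Krt6b, -2.27 for Krt16 and -1.70 for Krt17.

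Between 72 h and 24 h within WT the calcium response was lower at 72 h for Krt15 (-1.54, adjusted p = 0.00883) and Krt17 (-1.09, adjusted p = 0.00129). Within PKP4-KO cells it was lower for Krt15 (-1.29, adjusted p = 0.0161) and higher for Krt6a (0.69, adjusted p = 0.0122), Krt6b (1.45, adjusted p = 8.06e-04) and Krt16 (0.93, adjusted p = 0.00751). The Krt15 value was not called without PKP4-KO 72 h LCM replicate 1 (-1.02) or 24 h HCM replicate 1 (-1.09), and without TMM factors Krt6a (-0.00) and Krt16 (0.20) were not called. Within Rescue cells it was lower for Krt14 (-0.78, adjusted p = 0.0124, and -0.61 and not called without TMM factors), Krt6a (-1.30, adjusted p = 8.05e-06), Krt6b (-1.61, adjusted p = 1.13e-04), Krt16 (-1.89, adjusted p = 1.19e-06) and Krt17 (-1.55, adjusted p = 6.36e-06), and higher for Krt15 (1.97, adjusted p = 2.66e-04).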

How the results depend on the processing

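Of 133 called tests of the keratins, 86 kept call and direction under every alternative and 112 in every fit without 1 library. Each alternative was run on 137 values, the 133 called tests and the 4 of Krt14 between PKP4-KO and WT, out of 217 tests. With DESeq2 these 137 kept direction and side of the threshold, and DESeq2 called further keratins in other tests, for example 5 instead of 3 for the calcium response of PKP4-KO against WT at 24 h, with Krt6a and Krt16 added. With only the compared groups in the fit, which leaves fewer libraries to estimate the spread, 33 of 137 lost the call. Without a filter on low counts, which changes both the genes tested and the fitted spread, 17 did, and the cause was not tested. With only the compared groups, calls fell from 8 to 5 for lower levels in HCM, from 7 to 4 for PKP4-KO below WT and from 7 to 3 for larger calcium responses. The last count was 4 without a filter and 4 without TMM factors, and 6 to 9 in fits without 1 library.

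Without TMM factors calls rose from 7 to 11 for PKP4-KO below WT and from 6 to 10 for Rescue above PKP4-KO. Signs reversed in that setting for Krt17 (PKP4-KO, HCM against LCM, 72 h, -0.16), Krt15 and Krt14 (PKP4-KO, 72 h against 24 h HCM, -0.36 and -0.51), Krt14, Krt16 and Krt6a (PKP4-KO against WT, 72 h HCM, -0.66, -0.05 and -0.00), Krt14 (PKP4-KO against WT, -0.14 at 24 h LCM and -0.30 at 72 h LCM), Krt5 (Rescue against PKP4-KO, 72 h HCM, 0.38), Krt14 (calcium response, Rescue against PKP4-KO, 72 h, 0.25) and Krt6a (calcium response, 72 h against 24 h in PKP4-KO, -0.00). Of these, Krt14 at -0.51 and -0.66 and Krt5 at 0.38 were past the threshold in the changed direction. The cause was not tested. Krt14 between PKP4-KO and WT, never called with TMM factors, ranged from -0.21 to 0.02 at 24 h HCM over the fits without 1 library, with a changed sign without PKP4-KO replicate 3, and from -0.08 to 0.18 at 72 h LCM, with a changed sign without PKP4-KO replicate 1 or WT replicate 2 (-0.02).

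With the replicate number as a block, 1 of 137 lost its call, Krt5 in WT at 72 h HCM against LCM (-0.50, adjusted p = 0.0531), which took the lower calls in HCM from 8 to 7. Of 72 same-numbered pairs, 20 had a correlation of deviations over 0.1. In 2 of 24 comparisons all 3 pairs did, WT in HCM against LCM at 24 h (0.35 to 0.48) and Rescue against PKP4-KO at 72 h LCM (0.30 to 0.72), and the block changed no call in these.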

Other observations

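Simple-epithelium keratins were counted in Rescue cells too, where Krt7 was high. Of 6 tested, 5 were higher and 0 lower in Rescue than in PKP4-KO cells by edgeR in each of the 4 conditions, with median log2 fold changes of 4.64 (24 h) and 3.89 (72 h) in LCM and of 5.43 (24 h) and 5.69 (72 h) in HCM. Against WT, 3 of 6 were higher at 24 h LCM, 24 h HCM and 72 h HCM, and 6 of 6 at 72 h LCM. Of the 6, Krt8, Krt18, Krt19 and Krt20 had group means of at most 0.291 CPM in PKP4-KO cells, so the medians rest on low counts. Krt18 was at 0.415 CPM in Rescue and 0.0152 in WT cells at 72 h LCM. Of all genes, 33.7% to 66.7% were called between Rescue and PKP4-KO and 23.2% to 36.2% between Rescue and WT cells. Of 15 genes for keratinocyte activation in wounds, 13 were higher and 0 lower in Rescue than in WT cells at 72 h LCM (32.4% of all genes called), and 3 were higher and 1 lower at 72 h HCM (36.2% of all genes called), with a median of 0.02.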
